A study of Mus musculus with 18 samples.

Results

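The step from double positive (DP) thymocytes to CD4 single positive (SP) thymocytes was described at every CpG cytosine that could be compared between both stages in both assays. Members were the CpG cytosines on mouse chromosomes with at least 10 reads in each of the 12 libraries of the 2 stages, which gave 69 of the 104 mouse CpG cytosines in the files. They make up 42 CpGs, of which 27 have both of their cytosines among the members, and 5 cytosines, all at Gata3, lie outside the 64 cytosines that reach this coverage in all 18 libraries of the series.

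DP thymocytes carry both CD4 and CD8 on their surface and were sorted as CD4+ cells with intermediate to high CD8. CD4 SP thymocytes were sorted as CD4 cells with high CD3 and intermediate to low CD24. All cells came from female C57BL/6 mice, 4 to 6 weeks of age. Each stage had 3 cell isolations from separate mice, and the DNA of each was divided between sequencing after bisulfite (BS-seq) and after oxidation followed by bisulfite (oxBS-seq), which gave 3 BS and 3 oxBS libraries per stage. Sorted thymocytes are a mixture of cells that received different signals, so a share is a mean over the cells of a gate, and the gates cannot be checked here because no expression was measured.

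Methylation of cytosine (5mC) is placed on CpGs by DNA methyltransferases, and TET enzymes oxidise it to 5-hydroxymethylcytosine (5hmC), a step towards loss of the mark. Bisulfite turns unmodified C into a base read as T, while 5mC and 5hmC stay C. In oxBS-seq 5hmC is first oxidised and is then read as T. The unconverted share in BS is therefore 5mC plus 5hmC, the share in oxBS is 5mC with any 5hmC that escaped oxidation, and BS minus oxBS is the estimate of 5hmC. During the step studied here DP cells that are selected on major histocompatibility complex class II switch off Cd8 and become CD4 SP cells, a choice that depends on the transcription factors Gata3 and Zbtb7b.

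The cytosines lie in 5 amplified loci of the NCBIM37 (mm9) assembly, all of them inside genes. The study chose its T cell loci, named in Il6ra, Prkcq, Zbtb7b and Pax5, for their importance in T cell development. An antibody-based assay had also shown their 5hmC to change during that development. Counts of changed cytosines below thus describe chosen loci, not the genome. Il6ra (ENSMUSG00000027947.7), the gene of the interleukin 6 receptor alpha chain, was read at chr3:89679038-89679232, an intronic stretch 5792 bp from the gene's far end. Prkcq (ENSMUSG00000026778.6), the gene of protein kinase C theta, a kinase that acts below the T cell receptor, was read in an intron at chr2:11124412-11124609. Zbtb7b (ENSMUSG00000028042.8), the gene of ThPOK, the factor that fixes the CD4 fate, was read in a coding exon at chr3:89184744-89185022. Gata3 (ENSMUSG00000015619.9) was read in an intron at chr2:9781277-9781523, 2572 bp from the far end of the gene. Pax5 (ENSMUSG00000014030.9), the gene of a factor of B cell identity, was read in an intron at chr4:44628612-44628931. Il6ra held 12 of the CpG cytosines, Prkcq 17, Zbtb7b 28, Gata3 5 and Pax5 7, and the CpGs of Gata3 and Pax5 were covered on the forward strand only.

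The reference sequence of each locus from 10 bases before the first to 10 bases after the last CpG shows how differently the CpGs are arranged. Most of those at Prkcq and some of those at Zbtb7b sit in a run of short repeats, 5 of the 7 at Il6ra lie together at one end of the window, and those at Gata3 and Pax5 are spread out apart from a few close neighbours. Capitals mark the CpGs.
Il6ra (chr3:89679062-89679211, forward strand): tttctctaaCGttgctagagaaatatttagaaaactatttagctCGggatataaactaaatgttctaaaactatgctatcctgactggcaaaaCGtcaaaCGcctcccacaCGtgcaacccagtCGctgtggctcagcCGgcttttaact
Prkcq (chr2:11124453-11124570, forward strand): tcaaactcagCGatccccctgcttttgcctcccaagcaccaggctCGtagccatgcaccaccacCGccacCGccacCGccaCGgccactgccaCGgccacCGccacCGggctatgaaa
Zbtb7b (chr3:89184766-89184989, forward strand): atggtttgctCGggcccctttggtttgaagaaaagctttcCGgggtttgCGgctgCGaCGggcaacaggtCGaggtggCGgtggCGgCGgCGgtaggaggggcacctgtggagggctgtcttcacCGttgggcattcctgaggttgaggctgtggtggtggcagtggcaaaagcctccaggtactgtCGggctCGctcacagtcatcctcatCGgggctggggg
Gata3 (chr2:9781367-9781488, forward strand): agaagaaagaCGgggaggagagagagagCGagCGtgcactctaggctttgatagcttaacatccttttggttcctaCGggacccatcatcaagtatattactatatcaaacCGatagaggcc
Pax5 (chr4:44628633-44628918, forward strand): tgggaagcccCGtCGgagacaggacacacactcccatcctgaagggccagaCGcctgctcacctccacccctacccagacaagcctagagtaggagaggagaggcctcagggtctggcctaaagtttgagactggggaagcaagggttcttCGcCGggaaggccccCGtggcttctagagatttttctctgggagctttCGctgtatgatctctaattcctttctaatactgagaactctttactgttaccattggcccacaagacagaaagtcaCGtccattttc

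The BS share fell from DP to CD4 SP far more than the oxBS share did. Over the 69 cytosines the BS share was 89.2, 89.95 and 89.6% in DP libraries 1 to 3 and 76.6, 74.8 and 75.6% in CD4 SP libraries 1 to 3. The oxBS share was 78.02, 76.6 and 78.4% in DP and 74.2, 74.6 and 74.99% in CD4 SP. In both assays every CD4 SP library lay below every DP library. The BS share changed by -13.9 ± 0.566 percentage points (± SE of the difference, n = 3 against 3) and the oxBS share by -3.08 ± 0.611 points. BS minus oxBS within pairs of the same number was 11.2, 13.4 and 11.2 points in DP and 2.44, 0.192 and 0.644 points in CD4 SP, a change of -10.8 ± 1.01 points. Each of these 3 changes had an exact permutation p of 0.1 (two-sided), the smallest that 3 against 3 libraries can give, so no mean compared over 3 against 3 libraries or pairs could pass 0.05. The CD4 SP values of BS minus oxBS average loci of opposite sign, from -15.2 points at Il6ra and -7.78 at Pax5 to 11.2 at Prkcq, and a value below 0 is no amount of 5hmC.

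Il6ra carried a large part of these means. Without the 12 Il6ra cytosines the BS share changed by -8.04 points, the oxBS share by -2.46 and BS minus oxBS by -5.57, and the stages still did not overlap in any of the 3 measures. With reads pooled over cytosines, which weights the deeply read forward strand of Il6ra, the BS change was -33.6 points and that of BS minus oxBS -30.01 points. The means by strand also differed. On the forward strand (40 cytosines) the BS share changed by -9.82 points and the oxBS share by -0.345 points, where the libraries of the stages overlapped (exact permutation p = 0.6). On the reverse strand (29 cytosines) the changes were -19.5 points in BS and -6.85 points in oxBS, without overlap. Only the forward set holds cytosines of Gata3 and Pax5, where the oxBS share changed by 0.926 and 6.39 points. Strand and locus thus cannot be told apart between these sets. Leaving out the 8 reverse-strand cytosines of Prkcq, the most thinly read ones, brought the oxBS change over the remaining cytosines to -1.47 points.

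**Figure D1:**
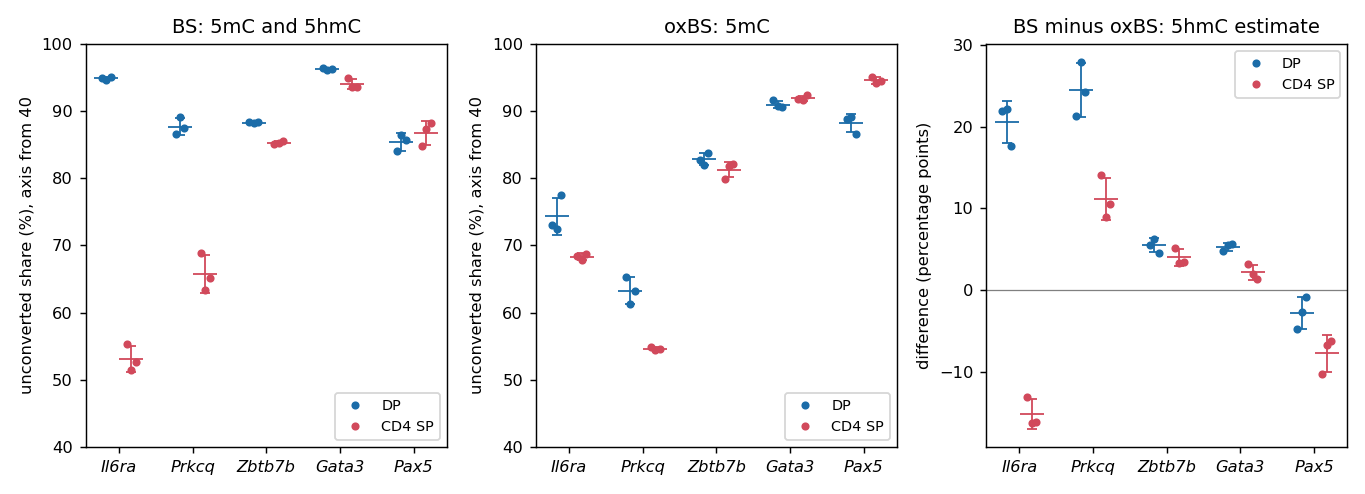
Unconverted share in BS (left) and oxBS (middle) libraries in percent, on axes that start at 40, and BS minus oxBS in percentage points (right), as the mean over the CpG cytosines of each locus. Points are the 3 libraries or pairs of a stage and bars the mean ± SD; in BS the stages stand apart at every locus but Pax5, and at Il6ra BS minus oxBS lies above 0 in DP and below 0 in CD4 SP.

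Read depth differed most by locus and strand, and on some strands also by stage. On the reverse strand of Il6ra the median oxBS depth was 16877, 17948 and 7077 reads in DP and 2401, 1954 and 2269 in CD4 SP. On the reverse strand of Prkcq the median BS depth was 27, 53 and 69 reads in DP and 59, 157 and 190.5 in CD4 SP. Total read-outs per library ranged from 4776147 to 8602209. Single cytosines had 38629 to 121174 reads on the forward strand of Il6ra and 1819 to 17986 on its reverse strand, 6128 to 12624 and 26 to 427 on the strands of Prkcq, 701 to 3994 at Zbtb7b, 313 to 6528 at Gata3 and 44 to 1169 at Pax5. At 26 reads, 3 counts correspond to a share of 11.5%. In lambda control DNA the unmodified control had 0.0392 to 0.0683% and the 5mC control 99.3 to 99.5% unconverted reads in the 12 libraries. The 5hmC control is described by the study as impure. It had 6.18% ± 0.365 in DP BS and 6.45% ± 0.667 in CD4 SP BS libraries (SD, n = 3). In oxBS it had 0.715% ± 0.114 in DP and 1.27% ± 0.201 in CD4 SP (SD, n = 3), without overlap of the stages, and the part of this difference in the oxBS results was not tested. Over 392 mouse cytosines outside CpGs the mean share was 0.218%, from 0.191 to 0.241% in single libraries. CpG shares of CD4 SP oxBS libraries 2 and 3 differed by less than sampling noise (p = 0.521 by chi-square over 69 cytosines), while other libraries of that group differ. Their read totals per strand and locus differ widely (chi-square of 154 per degree of freedom). They were kept as separate libraries, with the counts for the pair taken as 1 sample given beside the calls. Libraries 2 and 3 were also the closest pair in DP BS and CD4 SP BS, though beyond sampling noise. Their chi-square per degree of freedom was 1.30 (p = 0.0475) and 1.43 (p = 0.0114), against 2.26 and 11.5 for libraries 1 and 2. In DP oxBS the closest pair was 1 and 2, at 1.75. Whether libraries 2 and 3 are independent was not tested, so n = 3 may overstate the number of independent samples.

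At single cytosines the test was limma's moderated test across all 69, on log2 odds of unconverted reads for BS and oxBS and on paired differences for BS minus oxBS, with Benjamini-Hochberg adjustment and a call at an adjusted p under 0.05. In BS 49 cytosines were lower in CD4 SP (71.0% of 69) and 3 were higher (4.35%). In oxBS 30 were lower (43.5%) and 11 higher (15.9%). In BS minus oxBS 36 were lower (52.2%) and 7 higher (10.1%). Of the 36 lower calls 11 were at Il6ra and 4 at Pax5. BS minus oxBS was below 0 in all 3 pairs at 18 of the 69 cytosines in CD4 SP and at 6 in DP. It was above 0 in all 3 pairs at 44 in CD4 SP and at 58 in DP. A value below 0 is no amount of 5hmC, so the lower calls are no tally of 5hmC loss. Stages stood apart without overlap of their libraries, with CD4 SP lower, at 51 cytosines in BS (73.9%), 39 in oxBS (56.5%) and 38 in BS minus oxBS (55.1%), and with CD4 SP higher at 4 (5.8%), 13 (18.8%) and 10 (14.5%). With CD4 SP oxBS libraries 2 and 3 counted as 1 sample, 22 cytosines were lower and 8 higher in oxBS. With pairs 2 and 3 of each stage counted as 1, BS minus oxBS was lower at 25 and higher at 4. Without CD4 SP BS library 1, 5 cytosines were called higher in BS in place of 3.

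BS and oxBS fell together at some cytosines and parted at others. At 24 of the 69 cytosines BS and oxBS were both called lower, 11 of them at Prkcq, 7 at Il6ra and 6 at Zbtb7b. At 22 cytosines BS was called lower and oxBS was not called, 11 of them at Zbtb7b and 5 at Il6ra. At 3 cytosines BS was lower and oxBS higher, at position 9781399 in Gata3, 11124559 in Prkcq and 89184891 in Zbtb7b, all on the forward strand. At 8 cytosines oxBS was higher with no call in BS, 5 of them at Pax5. The opposite pair of calls, BS higher with oxBS lower, was made at 1 cytosine, 89184822 on the reverse strand of Zbtb7b. Across the 69 cytosines the changes in BS and oxBS had a Pearson r of 0.473, and of 0.639 over the 57 outside Il6ra. These are descriptions across cytosines that share libraries, reads and neighbours. Within loci the r ranged from -0.501 at Il6ra (12 cytosines) to 0.610 at Prkcq (17 cytosines).

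**Figure D2:**
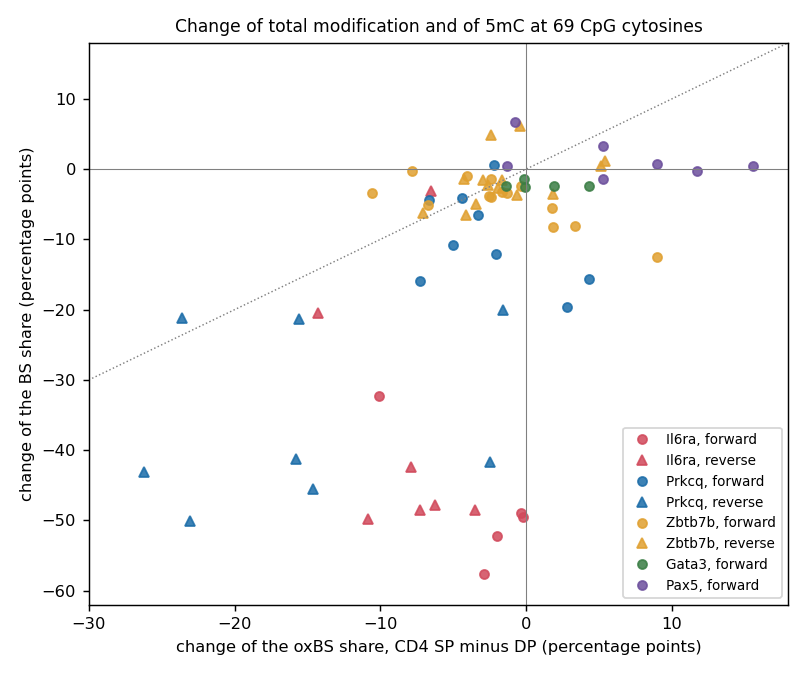
Change of the BS share (y axis) against change of the oxBS share (x axis) from DP to CD4 SP in percentage points, 1 point per CpG cytosine, circles for the forward and triangles for the reverse strand. The dotted line marks equal change; 50 of the 69 cytosines lie below it, where BS fell more or rose less than oxBS, with Il6ra at the bottom and 5 of the 7 Pax5 cytosines at the right.

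The hierarchical model of the study puts both assays together and gives proportions of C, 5mC and 5hmC that cannot be negative. Its Bayes factor for a difference between the stages exceeded 1 at 16 of the 69 cytosines (23.2%), 10 at Il6ra and 6 on the reverse strand of Prkcq. Over these 16 the mean posterior 5hmC was 34.7% in DP and 9.04% in CD4 SP, and C was 6.05% and 48.7%. These means describe cytosines chosen by their difference between the stages, and at the 10 Il6ra cytosines among them BS lay on average below oxBS in CD4 SP, where a model without negative proportions leaves 5hmC close to 0. On the forward strand of Il6ra it gave 45.2% C and 54.3% 5mC in CD4 SP, beside shares of 46.0% in BS and 62.0% in oxBS. Those proportions are not measured amounts either, and the mean C of 48.7% includes them. Over the other 53 cytosines 5hmC was 6.005% in DP and 3.76% in CD4 SP. The highest Bayes factor was 180.1, at position 89679155 of Il6ra, and no cytosine of Zbtb7b, Gata3 or Pax5 reached a value above 0.209. The limma calls cover many small changes, and some larger ones, that this measure of the whole composition does not call. Among the larger are BS changes of -20.4 points at 89679107 of Il6ra (Bayes factor 0.398) and -19.6 points at 11124546 of Prkcq (0.396).

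At Il6ra the BS share fell at every cytosine, but unevenly. The BS share over the locus was 94.95, 94.7 and 95.1% in DP and 55.3, 51.5 and 52.6% in CD4 SP, a change of -41.8 ± 1.13 points. All 12 cytosines were called lower in BS, 7 in oxBS and 11 in BS minus oxBS. The 5 CpGs between 89679155 and 89679201 fell together, by 32.3 to 57.6 points in BS over both strands. The remaining 2 CpGs, read on the reverse strand only, lie upstream of this group in coordinate order and changed less. At 89679107 BS went from 94.6, 92.2 and 93.9% to 75.9, 70.4 and 73.0%, and at 89679072 from 89.4, 88.8 and 91.1% to 88.2, 85.1 and 86.6%. The stages did not overlap at any of the 12 cytosines in BS, and the size of the change ran from -3.10 points at 89679072 to -57.6 points at 89679155.

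The oxBS share of Il6ra changed far less, and its change depended on the strand. Over the 5 forward cytosines oxBS was 63.7, 63.6 and 68.2% in DP and 62.2, 61.8 and 62.02% in CD4 SP, and 1 of the 5 was called lower. Over the 7 reverse cytosines it was 79.7, 78.8 and 84.2% in DP and 72.8, 72.03 and 73.6% in CD4 SP, and 6 of the 7 were called lower. In each DP group library 3 stood above libraries 1 and 2. The locus mean changed by -6.01 ± 1.62 points, and by -4.42 points without DP library 3. A linear correction for conversion and an oxidation efficiency of 0.9 brought it to -2.06 points with overlapping stages (exact permutation p = 0.2). That correction takes BS minus oxBS as 5hmC, although BS lay below oxBS in CD4 SP. It gave 70.4% for oxBS beside 53.4% for BS in CD4 SP, so the corrected change is no check of the oxBS fall. On the forward strand the single call was at 89679162, where oxBS went from 73.7% ± 2.58 to 63.6% ± 0.194 (SD, n = 3). Among the 5 forward cytosines this one also had the highest oxBS share in DP and the smallest BS change, -32.3 points. Its neighbour 7 bp away, at 89679155, showed the other extreme. BS there went from 95.01, 94.6 and 94.5% to 38.6, 36.4 and 36.3%, and limma gave a log2 odds change of -4.92 ± 0.0897 (SE, adjusted p = 1.37e-08). The oxBS share went from 61.2, 61.5 and 66.2% to 60.5, 59.7 and 60.1%, a log2 odds change of -0.18 that was not called (adjusted p = 0.223).

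In CD4 SP the BS share of Il6ra lay below its oxBS share, which no proportion of 5hmC can produce. BS minus oxBS over the locus was 21.9, 22.2 and 17.6 points in DP and -13.1, -16.3 and -16.2 points in CD4 SP. In DP the difference was above 0 in all 3 pairs at 11 of the 12 cytosines, and in CD4 SP it was below 0 in all 3 pairs at 9 of the 12. The 3 exceptions in CD4 SP are both outlying CpGs and position 89679162, with means of 5.86, 2.01 and -0.894 points. Pairing by covered intervals in place of numbers gave a like value, since BS library 2 minus oxBS library 1, which share extra intervals, was -16.9 points in CD4 SP. The CD4 SP difference is thus no amount of 5hmC at Il6ra, and the size of the 5hmC loss there cannot be read from it. With BS below oxBS, the 2 shares in CD4 SP cannot both be amounts of the marks, which limits the reading of the small oxBS change as well. On the forward strand the model gave 31.0% 5hmC in DP and 0.493% in CD4 SP, where the BS share was 46.0% and the oxBS share 62.0%, and as the model allows no negative proportion the second value is not a measured amount.

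**Figure D3:**
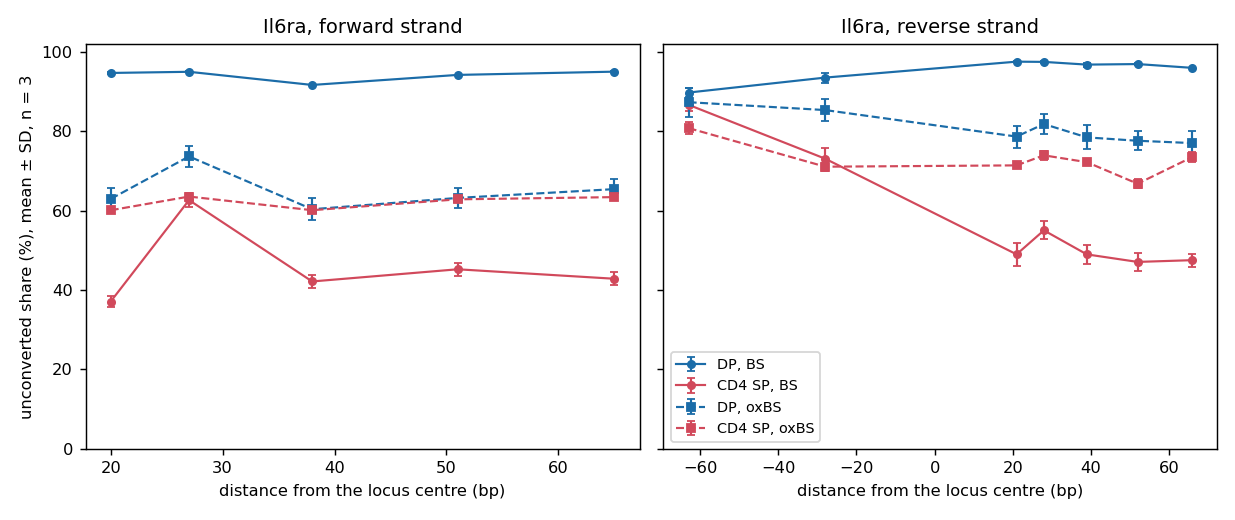
Unconverted share in percent (mean ± SD, n = 3) at the CpG cytosines of Il6ra against distance from the centre of the locus in bp, forward strand left and reverse strand right, with solid lines for BS and dashed lines for oxBS. In CD4 SP the BS line drops below the oxBS line over the 5 clustered CpGs, except where both are close to 63% at the second forward cytosine, while the BS shares of the outlying CpGs in CD4 SP are 86.7 and 73.1%.

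The clustered CpGs include the only CACGTG among the 5 printed windows, the E-box that many helix-loop-helix factors can bind. It spans 89679171 to 89679176 on chromosome 3, and of 1042611 stretches of 150 bases along that chromosome 1.32% hold these letters, which read the same on both strands. On its forward cytosine BS went from 91.7, 91.7 and 91.6% to 44.1, 41.1 and 41.3%, and on its reverse cytosine from 96.7, 96.4 and 97.3% to 51.5, 46.7 and 48.8%. The oxBS share of the forward cytosine was 58.9, 58.6 and 63.6% in DP and 60.6, 59.8 and 60.0% in CD4 SP, with overlapping libraries. The BS change of -49.5 points in the E-box lay inside the range of the other 4 clustered CpGs.

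At Prkcq the BS and oxBS shares both fell, and the strands of the same CpGs gave different amounts. The BS share over the locus was 86.6, 89.1 and 87.4% in DP and 68.9, 63.4 and 65.1% in CD4 SP, a change of -21.9 ± 1.79 points. The oxBS share was 65.2, 61.2 and 63.2% in DP and 54.9, 54.4 and 54.6% in CD4 SP, a change of -8.63 ± 1.16 points. The stages were apart in both. Of 17 cytosines 16 were called lower in BS, 12 in oxBS and 12 in BS minus oxBS, and 1 each was called higher in oxBS and in BS minus oxBS. BS was above oxBS on average by 24.5 points in DP and 11.2 in CD4 SP, so the mean difference kept a sign that 5hmC can have. These means join 9.60 and 2.40 points on the forward strand with 41.2 and 21.0 points on the thinly read reverse strand.

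The forward strand of Prkcq, with 6128 or more reads at each cytosine, changed by -9.84 ± 0.477 points in BS and -2.65 ± 0.586 points in oxBS. Along it the CpGs did not move alike. At 11124523 BS went from 96.0, 96.0 and 96.1% to 96.9, 96.5 and 96.4%, a change of 0.53 points that was not called, although the stages did not overlap. At 11124546, the fall in BS was the largest of the strand, from 92.9, 93.0 and 93.1% to 75.1, 72.7 and 72.3%. There oxBS was 79.4, 79.6 and 81.2% in DP and 81.8, 83.6 and 83.2% in CD4 SP, so that BS minus oxBS went from 12.9 ± 0.9 to -9.51 ± 2.44 points. At 11124559 oxBS was called higher in CD4 SP, with 63.7, 65.2 and 66.6% in DP and 68.5, 69.8 and 70.1% in CD4 SP (limma, adjusted p = 0.0418), while BS fell by 15.6 points. BS minus oxBS in CD4 SP was thus below 0 at 2 of the 9 forward cytosines in all 3 pairs.

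The reverse strand of Prkcq changed by -35.5 ± 3.36 points in BS and -15.4 ± 2.64 points in oxBS. It was read 26 to 427 times per cytosine, with 26 to 27 reads in DP BS library 1. At 11124554 BS went from 96.3, 90.9 and 97.4% in DP to 49.2, 40 and 45.1% in CD4 SP, and the Wilson 95% interval of the first value, at 27 reads, is 81.7 to 99.3%. The log2 odds change was -4.38 ± 0.410 in BS (limma, adjusted p = 6.14e-05) and -1.54 ± 0.186 in oxBS (adjusted p = 0.000986). The forward cytosine of the same CpG, 11124553, changed by -12.1 points in BS, against -50.1 points on the reverse strand. The largest oxBS fall of all 69 cytosines was on this strand, at 11124547, from 53.8, 43.6 and 41.7% to 21.2, 19.3 and 19.9%, whereas its forward partner changed by 2.82 points.

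The strand difference at Prkcq was present in both stages and, in BS and in oxBS, was wider in CD4 SP. Over the 8 CpGs read on both strands, forward minus reverse was 12.6, 8.04 and 11.5 points for BS in DP and 31.3, 40.5 and 36.1 points in CD4 SP. For oxBS it was 36.4, 45.5 and 44.6 points in DP and 53.4, 56.1 and 55.3 points in CD4 SP. For BS minus oxBS the gap ran the other way and was narrower in CD4 SP, with -23.9, -37.4 and -33.1 points in DP and -22.2, -15.7 and -19.1 points in CD4 SP. Forward stood above reverse at all 8 CpGs for oxBS in either stage and for BS in CD4 SP, and at 5 of the 8 for BS in DP. The widest gap between strands was at the CpG of 11124529 and 11124530. Its forward cytosine had a mean BS share of 97.4% in DP and 93.2% in CD4 SP, and its reverse cytosine 26.8% ± 11.5 and 6.83% ± 1.96 (SD, n = 3). Library values on the reverse strand were 15.4, 38.5 and 26.6% in DP BS and 5.77, 6.15 and 6.71% in DP oxBS. Depth moved together with strand at Prkcq, since the reverse strand was the thin one in every library, and the part of depth in the strand difference was not tested.

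**Figure D4:**
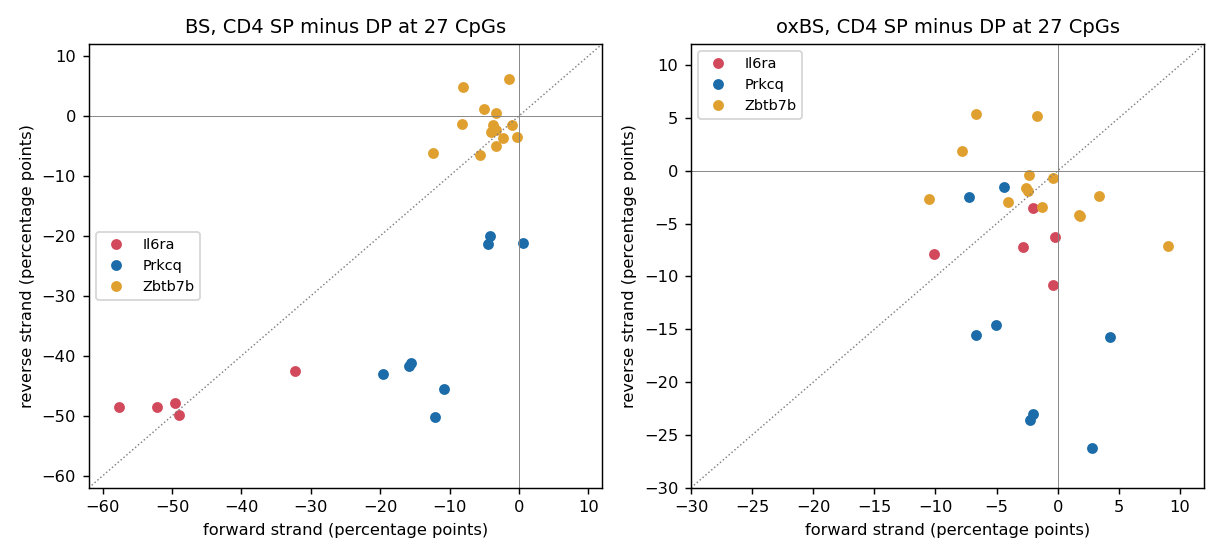
Change from DP to CD4 SP in percentage points on the forward strand (x axis) and the reverse strand (y axis) of the 27 CpGs read on both, for BS (left) and oxBS (right), 1 point per CpG. The dotted line marks equal change; in BS the 8 Prkcq CpGs lie below it, the 5 Il6ra CpGs lie within 10.1 points of it, and the 14 Zbtb7b CpGs lie on both sides of it.

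At Il6ra the strands parted less. Over the 5 CpGs read on both, forward minus reverse BS was -2.61, -2.79 and -3.09 points in DP and -4.08, -2.37 and -4.12 points in CD4 SP, overlapping ranges. The oxBS share of the forward strand was below that of the reverse strand at all 5 CpGs in both stages, by 13.6 points on average in DP and 9.57 in CD4 SP. The strand difference in oxBS narrowed by 4.03 ± 0.482 points without overlap of the stages (exact permutation p = 0.1).

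At Zbtb7b the changes were small and mixed, at a locus with at least 701 reads at each cytosine. The BS share was 88.3, 88.2 and 88.3% in DP and 85.1, 85.2 and 85.5% in CD4 SP, a change of -3.0 ± 0.139 points. The oxBS share was 82.8, 81.9 and 83.8% in DP and 79.9, 81.9 and 82.1% in CD4 SP, a change of -1.54 ± 0.859 points with overlapping stages (exact permutation p = 0.2), and of -0.860 points without CD4 SP library 1. BS minus oxBS changed by -1.46 ± 0.765 points, also with overlap, and by -0.141 points when BS library 2 was set against oxBS library 1. Of 28 cytosines 18 were called lower and 2 higher in BS, 11 lower and 3 higher in oxBS, and 7 lower and 5 higher in BS minus oxBS. The 71.0% called lower in BS over all cytosines compares with 18 of 28 here.

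Single CpGs of Zbtb7b gave the range of patterns. At 89184891 on the forward strand BS was 65.6, 68.5 and 68.3% in DP and 54.2, 54.6 and 56.3% in CD4 SP, a change of -12.4 points. There oxBS rose from 56.0, 56.9 and 57.3% to 62.2, 67.2 and 67.9% (limma, log2 odds 0.55 ± 0.123, adjusted p = 0.00674), so that BS minus oxBS crossed from 10.7 ± 1.06 to -10.7 ± 2.42 points. On the reverse strand of the same CpG, at 89184892, both assays fell, with changes of -6.18 points in BS and -7.08 points in oxBS, and the difference changed by 0.896 points. This CpG had the lowest BS shares of the locus on both strands. At 89184959 oxBS showed the largest fall of the locus, from 90.6, 91.3 and 91.0% to 79.2, 80.5 and 81.5%, while BS went from 92.5, 93.0 and 93.3% to 89.2, 89.0 and 90.5%. BS minus oxBS rose there by 7.19 ± 0.917 points (SE of limma, adjusted p = 0.000629). At 89184776 oxBS fell in the same way, from 79.1, 75.9 and 75.5% to 67.8, 69.1 and 70.2%, with BS at 79.4% ± 0.602 and 79.2% ± 0.751 (SD, n = 3) and a difference that rose by 7.55 ± 1.49 points.

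The strands of Zbtb7b were close in their mean levels, while single CpGs differed either way. In both stages the mean BS and oxBS shares of the strands differed by no more than 2.06 points. Forward minus reverse at single CpGs ran from -12.5 to 8.35 points for oxBS in DP and from -6.42 to 5.45 points for BS in CD4 SP. The BS change had the same sign on both strands at 10 of the 14 CpGs, the oxBS change at 7 and the change of BS minus oxBS at 8. On the forward strand BS fell by 4.44 ± 0.549 points and on the reverse strand by 1.55 ± 0.468, and the forward minus reverse difference changed by -2.89 ± 0.982 points without overlap of the stages (exact permutation p = 0.1). Both cytosines called higher in BS at this locus were on the reverse strand, at 89184807, from 83.9, 81.3 and 82.4% to 89.5, 88.7 and 87.8%, and at 89184822, with a mean of 82.0% in DP and 86.9% in CD4 SP.

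**Figure D5:**
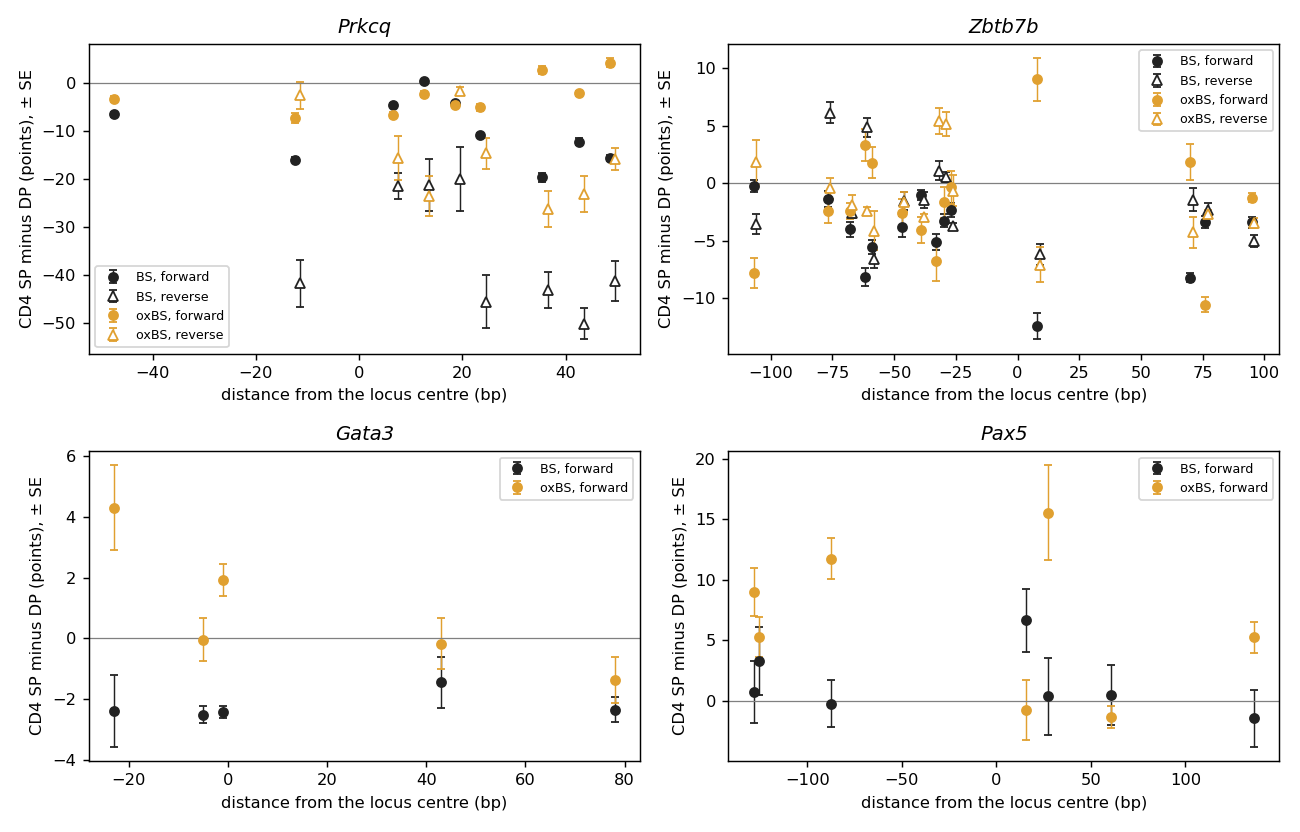
Change of the BS share (black) and the oxBS share (yellow) from DP to CD4 SP in percentage points, with the SE of the difference, against distance from the centre of each locus in bp, filled circles for the forward and open triangles for the reverse strand; the y axes differ between panels. At Prkcq the open BS triangles lie from -20.0 to -50.1 points, at Zbtb7b points lie on both sides of 0, at Gata3 all BS circles lie below 0, and at Pax5 5 of 7 oxBS circles lie above it.

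At Gata3, whose factor is needed for CD4 SP cells to form, modification was high and changed by a few points. The BS share was 96.4, 96.1 and 96.2% in DP and 94.9, 93.6 and 93.6% in CD4 SP, a change of -2.23 ± 0.440 points without overlap. The oxBS share was 91.6, 90.7 and 90.6% in DP and 91.7, 91.6 and 92.4% in CD4 SP, where the stages overlapped (exact permutation p = 0.2). All 5 cytosines had a lower mean BS share in CD4 SP, by 1.45 to 2.51 points, and 3 of them were called. In oxBS 2 were called higher and the remaining 3 were not called. The oxBS rise was largest at 9781377, from 83.3, 84.2 and 83.1% to 85.4, 88.0 and 90.1% (limma, adjusted p = 0.0274), where BS was not called. BS minus oxBS over the locus went from 4.75, 5.44 and 5.66 points to 3.15, 1.97 and 1.28 points. All 6 values were above 0, and the stages did not overlap. The change of -3.15 points had an exact permutation p of 0.1 over pairs and of 0.01 with the libraries of each assay permuted on their own, without pairs. The same permutation without pairs gave 0.1 at Il6ra, 0.175 at Prkcq, 0.4 at Zbtb7b and 0.11 at Pax5. At those loci the BS and oxBS means changed in the same direction, so relabelling a single assay can widen their difference. At Gata3 they changed in opposite directions, so these p values cannot be compared between loci. These p values were not adjusted for the number of loci. The lowest read numbers, 313 to 381 across the locus in DP oxBS library 1, allow shares of up to 0.958% when 0 reads are seen.

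At Pax5 the oxBS share was higher in CD4 SP, and the BS shares of the stages overlapped. The oxBS share was 88.8, 89.1 and 86.6% in DP and 95.1, 94.1 and 94.5% in CD4 SP, a change of 6.39 ± 0.838 points without overlap. The BS share was 84.0, 86.5 and 85.7% in DP and 84.8, 87.4 and 88.3% in CD4 SP, a change of 1.41 ± 1.27 points (exact permutation p = 0.4). This change was 0.707 points without DP library 1, 0.685 without CD4 SP library 3 and 2.41 without CD4 SP library 1. Of the 7 cytosines 5 were called higher in oxBS, against 15.9% of all 69, and 1 was called higher in BS. The rise was largest at 44628799, from 80.9, 87.5 and 74.5% to 98.8, 95.5 and 95.2%, with 47 to 200 reads in the DP oxBS libraries. The Wilson 95% intervals of DP oxBS libraries 1 and 3 there are 67.5 to 89.6% and 61.7 to 84.2%. The BS call was at 44628787, from 83.3, 91.9 and 90.0% to 94.4, 95.2 and 95.5%. BS lay below oxBS in both stages at this locus, with BS minus oxBS at -4.83, -2.66 and -0.886 points in DP and -10.3, -6.79 and -6.22 points in CD4 SP, so that neither stage gave an amount of 5hmC there. The highest depth was 1169 reads and the lowest 44, and the 5hmC control in oxBS moved with stage as given above.

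The bases beside a CpG were listed for each cytosine. Cytosines followed, after the CpG's G on their own strand, by T (15 cytosines) had a median BS change of -15.9 points, against -3.78, -2.61 and -5.33 points for A (13), C (15) and G (26). At Il6ra the medians for A, C, G and T were -35.1, -40.7, -50.3 and -48.2 points, from 2, 2, 2 and 6 cytosines, and at Zbtb7b they were -3.56, -1.49, -3.31 and -9.50 points. The loci share few cytosines of each kind, so the sequence beside a CpG and the locus cannot be told apart in these medians.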

How the data were processed

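Targeted BS-seq and oxBS-seq were analysed in 6 DP and 6 CD4 SP libraries of sorted mouse thymocytes, with stage, assay and number taken from the labels. The authors trimmed adapters, aligned read pairs with Bismark 0.7.12 and Bowtie 2 to mm9 with lambda phage, and extracted calls in all contexts with a cutoff of 10 reads, counting overlapping mates once. The deposited counts are unconverted and converted reads per cytosine, not normalized. The deposited percent is the authors' share of unconverted reads and was recomputed from the counts. PCR duplicates carry no molecular identifier, so Wilson intervals (95%) and floors (3 counts of the reads) cover counting error only, and deep cytosines are known better than thin ones.

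Positions, counted from 0 in the files, were raised by 1 and compared with NCBIM37, the same build as mm9. Every mouse position was a C or a G there. Runs with gaps under 1000 bp formed a locus, annotated with GENCODE vM1, and printed sequences were read from NCBIM37. Controls were told apart by their share. Means weight cytosines equally. Stage means were compared by exact permutation over 20 arrangements, where the smallest p is 0.1. Over 15 tests (5 loci, 3 measures) no Benjamini-Hochberg adjusted permutation p was under 0.136. Single cytosines were tested with limma 3.58.1 (R 4.3.3) on log2 odds with 0.5 reads added to each count, and on paired differences in points. The study's hierarchical model was integrated numerically with a Dirichlet parameter of 0.8 and the oxidation efficiency fixed at 0.9, in place of its sampler. Scripts were tested on simulated data.

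In each locus the cytosines with the largest fall and rise of each measure, their strand partners and CpGs in CACGTG were named. Values given for 89679162, 89184822, 9781399 and the CpG of 11124529 and 11124530 are outside this rule and were chosen after they were seen. The members, loci and tests were chosen with earlier results of these data known. BS and oxBS libraries of one stage and number were paired, because the protocol in the labels divides the DNA, although no source says that a number marks the same DNA in both assays. Whether DP and CD4 SP libraries of one number share mice is not given in the sources used here. Deviations from the group means over 69 cytosines correlated between same-numbered libraries of the stages by 0.137, 0.00284 and 0.149 in BS and by 0.317, 0.162 and 0.203 in oxBS. When limited to 35 cytosines read 1000 times or more in all 12 libraries, the correlations were 0.669, 0.335 and 0.668 in BS and -0.349, 0.682 and -0.177 in oxBS. Since the sets differ in which assay has all 3 over 0.1, a fit with the number as a block was also made. Between BS and oxBS libraries of one stage and number, the correlations over 69 cytosines were 0.0505, 0.236 and 0.164 in DP. They were 0.283, 0.384 and -0.235 in CD4 SP. Over the 35 cytosines they were -0.166, 0.394 and -0.285 in DP and 0.807, 0.798 and 0.598 in CD4 SP. In neither set did all pairs correlate positively in both stages. The 6 naive CD4 libraries entered no comparison.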

Additional observations from a re-analysis of the deposited data

Results flagged for a closer look

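Some CpG cytosines in the files entered no comparison because they were not read in all 12 libraries. On chromosome 6, 5 CpG cytosines were read in 1 library of each kind only, with a mean unconverted share of 33.3% in DP BS 2 (51 to 169 reads), 45.5% in DP oxBS 1 (22 to 28 reads), 16.1% in CD4 SP BS 2 (514 to 2077 reads) and 89.4% in CD4 SP oxBS 1 (104 to 732 reads). They were singled out because their shares lie above the 0.218% of cytosines outside CpGs. With 1 library of each kind there is no replicate, and in both stages the mean oxBS share is above the mean BS share.

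At Pax5 the CpG cytosine at 44628784 reached 10 reads in 11 of the 12 libraries, with shares from 84.6 to 100%, a median of 93.7% and 13 to 141 reads, again above the level outside CpGs. No group held more than 3 libraries, so no library could be tested as an outlier.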

How the results depend on the processing

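The direction of every locus mean was kept under every alternative run, and the count of cytosines with a Bayes factor over 1 stayed between 15 and 18. With at least 1000 reads 35 cytosines could be tested, and limma called 32 lower and 1 higher in BS, 18 lower and 2 higher in oxBS, and 21 lower and 4 higher in BS minus oxBS, from fewer cytosines tested. Leaving out 1 library or pair gave 47 to 52 cytosines lower and 3 to 5 higher in BS. In oxBS it gave 21 to 30 lower and 8 to 14 higher. In BS minus oxBS it gave 27 to 34 lower, against 36 with all pairs, and 5 higher. With pairs 2 and 3 of each stage counted as 1, an alternative chosen after seeing the data as were the others that count libraries as 1, 4 cytosines were higher in BS minus oxBS. Within the chromosome 6 set BS minus oxBS changed by -38.6 points at Il6ra and -0.141 at Zbtb7b, and with BS 3 against oxBS 2 and 3 by -3.95 at Gata3. Without pairing of BS and oxBS the Gata3 change of -3.15 points had an exact permutation p of 0.01, not adjusted. In that permutation the p values of the other loci ranged from 0.1 at Il6ra to 0.4 at Zbtb7b. They cannot be compared with that of Gata3, the only locus where the BS and oxBS means changed in opposite directions. With the replicate block between stages limma called 51 lower and 4 higher in BS, 30 and 10 in oxBS and 33 and 5 in BS minus oxBS, and the 3 block differences of a mean allow no exact permutation p under 0.25. The oxBS change of -3.08 points over all cytosines was -1.90 with the linear correction. That correction takes BS minus oxBS as 5hmC also where BS lies below oxBS. The part of such cytosines in the shift was not tested.

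Signs of single cytosines were checked only for those named by the rule. Among these, signs turned at cytosines that limma had not called, in log2 odds for BS and oxBS and in points for BS minus oxBS. Leaving out 1 library, the BS change ranged from -0.20 to 0.29 at 44628799, -0.12 to 0.73 at 44628832, -0.30 to 0.0315 at 44628908 and -0.0563 to 0.0094 at 89184776. The oxBS change ranged from -0.13 to 0.15 at 9781395, -0.0693 to 0.0826 at 89679173, -0.85 to 0.0653 at 44628787, -1.05 to 0.31 at 44628832 and -0.12 to 0.0234 at 89184807. BS minus oxBS ranged from -0.61 to 6.77 points at 11124524 and from -0.485 to 2.79 at 89184892. The quasi-binomial model gave 0.0629 for oxBS at 9781395. The causes were not tested.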
